A study of Mus musculus with 9 samples.

Results

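The genes described here are 10 members of the MYC, MAX and MXD network of transcription factors, chosen by name: Myc, Mycn, Max, Mxd1, Mxi1, Mxd3, Mxd4, Mnt, Mlx and Mlxip. The choice was made with earlier results of these data known. All 10 were found by their Ensembl identifiers among 53679 gene rows, and all 10 were among the 15348 genes with enough counts to be tested. The libraries were made from total RNA, depleted of ribosomal RNA, of CD8+ T cells from C57BL/6 mice that had been activated in culture for 3 days. The study asked how Tc22 cells and Tc0 cells given coenzyme A differ from Tc0 cells. Each of 3 mice, numbered 715, 725 and 728, supplied cells for 3 groups, so that each group holds 3 libraries. Tc0 cells, activated CD8+ T cells with no agent listed (the protocol mentions a vehicle), are the reference. The second group is Tc0 cells cultured with CoA, the acyl-group carrier coenzyme A. The third is Tc22 cells with no agent listed, a name used for CD8+ T cells that make interleukin-22. The labels give no dose of CoA, no activating stimulus or polarising cytokines, and no age or sex of the animals. These are cultured populations rather than cells taken directly from tissue.

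MYC and MYCN are basic helix-loop-helix leucine zipper proteins that bind DNA only as a dimer with MAX, at E-box sequences, and raise transcription of genes for ribosome production, nucleotide synthesis and metabolism. The MXD proteins (MXD1, MXI1, MXD3, MXD4) and MNT also pair with MAX, bind the same sequences and recruit the SIN3-HDAC corepressor, so they oppose MYC at shared sites. MLX pairs with MLXIP (also called MondoA), a factor that responds to glucose-derived metabolites and drives Txnip and Arrdc4. In T cells, Myc is induced soon after antigen receptor signalling and drives the switch to growth metabolism, whereas several MXD genes are known for expression in resting or differentiated cells.

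The libraries held 21841034 to 36254631 counts. Genes encoded by the mitochondrial genome took 2.0% to 4.0% of the counts. Tc0 from mouse 728 stood furthest from its group: its chi-square per degree of freedom against the other Tc0 libraries was 216 and 127, and all other replicate pairs lay between 22.3 and 69.8. It also had the largest share of histone gene counts, 0.787%. The CD8 T cell markers summed to 1752 to 2794 CPM (the depth-scaled count of a gene, on TMM-scaled library sizes) over the 9 libraries, and Cd8a reached 860 CPM. Cd4 never passed 1.37 CPM.

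The E-box that MYC-MAX, MXD-MAX and MNT-MAX dimers prefer is CACGTG, which reads the same on both strands. RefSeq start windows on GRCm38.p6 were matched for 9 of 10 members (no entry was matched for Myc), 11 windows in all, and the 250 bases before each start were searched. CACGTG was present in 3 of these members, Mxd4, Mnt and Mlx. It was in 6.02% of all 32851 windows, a share per window rather than per gene, so the figures are not directly comparable. The matches of these 3 members are printed below because 2 of the members, Mxd4 and Mnt, are repressor genes whose transcripts changed. The E-box is in capitals and each sequence runs 5′ to 3′ on the gene's own strand.
Mxd4, chr5:34187904-34187959, minus strand: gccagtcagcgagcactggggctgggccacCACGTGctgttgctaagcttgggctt
Mnt, chr11:74830771-74830826, plus strand: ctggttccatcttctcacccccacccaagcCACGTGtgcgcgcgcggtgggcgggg
Mlx, chr11:101087220-101087275, plus strand: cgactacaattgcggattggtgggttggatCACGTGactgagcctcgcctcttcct
The E-box begins 219 bases before the start of Mxd4, 123 before that of Mnt and 40 before that of Mlx. The windows of Mycn, Max, Mxd1, Mxi1, Mxd3 and Mlxip held no such letters in the stretch searched. A match describes letters only and shows no binding.

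Factors of the MLX branch are known to bind a pair of E-box-like elements set 5 bases apart. The motif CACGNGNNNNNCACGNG, searched on both strands, was found in 0.0457% of all windows, 15 in number. Among the MLX-branch targets followed below, Txnip held it, beginning 85 bases before the start, and Arrdc4 held a CACGTG beginning 193 bases before the start. CACGTG was also found in 6 of the 25 MYC-activated targets with a matched window, again counted per gene. The matched letters are in capitals.
Txnip, chr3:96557842-96557908, plus strand: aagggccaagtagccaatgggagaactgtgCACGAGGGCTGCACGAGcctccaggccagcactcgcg
Arrdc4, chr7:68749406-68749461, minus strand: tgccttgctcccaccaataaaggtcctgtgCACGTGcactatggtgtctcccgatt

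Per kilobase of exon, Myc had the highest mean of the 10 transcripts in every group, with a range that overlapped that of Mlx in Tc22. In Tc0 the level per length was 31.7 ± 2.70 CPM per kb for Myc and 24.7 ± 1.73 for Mlx (mean ± SD, n = 3). Max followed at 11.3 ± 1.21 and Mxi1 at 9.69 ± 2.06 CPM per kb. Among these 4 only Max and Mxi1 overlapped in range, and Mxi1 also overlapped Mxd3, the next in order. Mxd3 at 5.01 ± 2.96, Mlxip at 3.82 ± 0.580, Mxd4 at 3.64 ± 2.59, Mxd1 at 2.28 ± 0.652 and Mnt at 2.11 ± 0.947 CPM per kb overlapped one another between neighbours. Mycn was lowest at 0.367 ± 0.0157 CPM per kb. In Tc22, Mxi1 reached 13.5 ± 2.44 CPM per kb, above Max at 9.35 ± 1.47, and the ranges of the latter 2 did not overlap. In Tc0 with CoA, Mxd4 was at 0.711 ± 0.333 CPM per kb, with only Mycn below it.

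**Figure D1:**
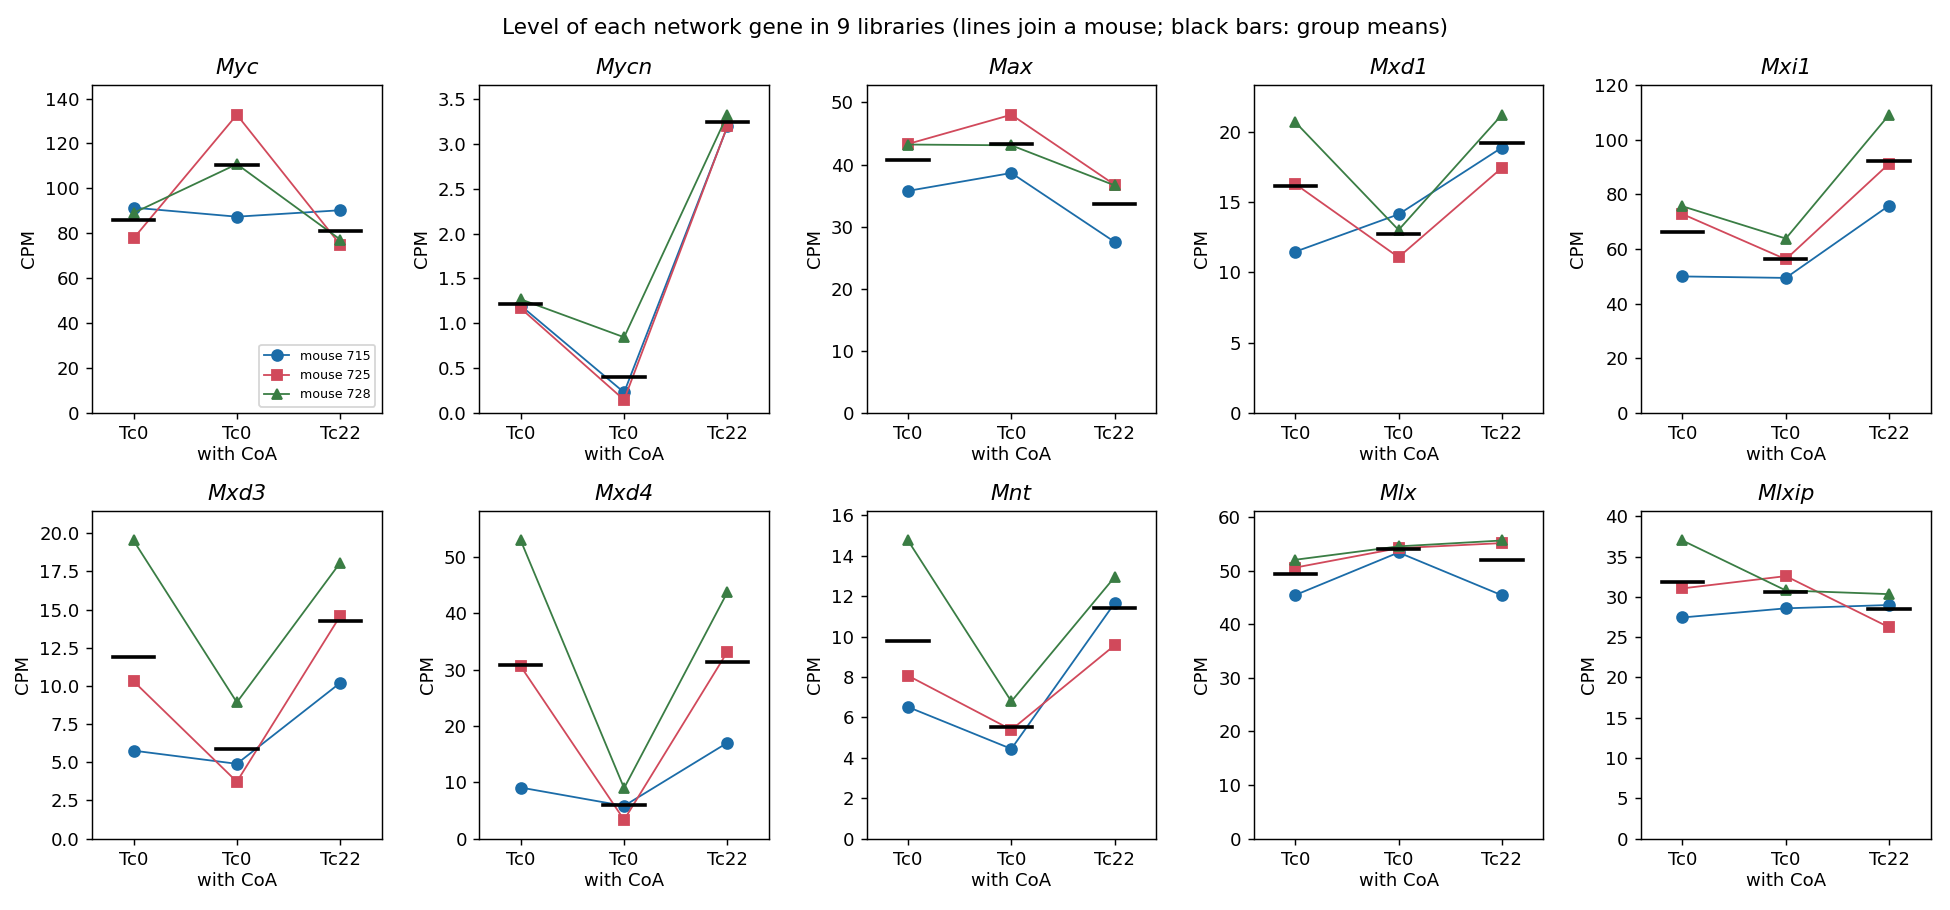
Level of each of the 10 network genes in CPM (vertical axes from 0) in the 3 groups; each point is a library, lines join libraries of a mouse and black bars are group means of 3 libraries. Mycn and Mxd4 lie lower in all 3 libraries with CoA than in any Tc0 library, and Mycn and Mxi1 lie higher in all 3 Tc22 libraries than in any Tc0 library.

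With coenzyme A, transcripts of 3 of the 5 MXD and MNT repressors, and of Mycn, were lower, with no called change in Mxd1, Mxi1, Myc or Max. In Tc0 with CoA against Tc0, 4 of the 10 members passed the test, all lower: Mycn, Mxd3, Mxd4 and Mnt (edgeR quasi-likelihood test with mouse as a block, Benjamini-Hochberg adjusted p below 0.05 over all genes). The background is high, since 24.5% of all tested genes were called in this comparison and 12.0% were called lower. The members' median log2 fold change was -0.27, against -0.01 over all genes tested. In 3 members the groups did not overlap, as in 27.8% of all tested genes (14.2% higher, 13.6% lower): Mycn and Mxd4 were lower and Mlx higher. Without the mouse block, 1 member, Mxd4, was called; 1 was also called without Tc0 or the CoA library of mouse 725, and 2 without Tc0 or the CoA library of mouse 728. In such bulk libraries fewer cells of a type and less RNA per cell cannot be told apart.

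Between Tc22 and Tc0 a single member passed, Mxi1, which was higher; 3 members had an unadjusted p below 0.05. In this comparison 3.68% of all tested genes were called and 2.48% were called higher. The members' median log2 fold change was 0.22, against -0.01 over all genes. The groups did not overlap for 2 members, Mycn and Mxi1, both higher, and for 12.5% of all tested genes (6.55% higher, 5.98% lower). Without the mouse block 0 members were called by edgeR, and DESeq2, which includes the block, called 2, Mxi1 and Mycn. Leaving out Tc0 of mouse 715 or 725 or any of the Tc22 libraries gave 0, and leaving out the CoA library of mouse 715 or 725 gave 2.

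When Tc22 was set directly against Tc0 with CoA, 7 of 10 members passed. Mycn, Mxd1, Mxi1, Mxd3, Mxd4 and Mnt were higher in Tc22, and Max was lower. Of all tested genes, 32.0% were called in this comparison, 16.0% higher and 16.0% lower in Tc22. The groups did not overlap for the same count of members, 7, and for 41.9% of all tested genes (20.2% higher, 21.7% lower). The median log2 fold change was 0.64 over the members and 0.01 over all genes. Without the mouse block 3 members were called: Mycn, Mxi1 and Mxd4. The comparisons share libraries by pairs, so their values are given side by side and are not independent of each other.

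**Figure D2:**
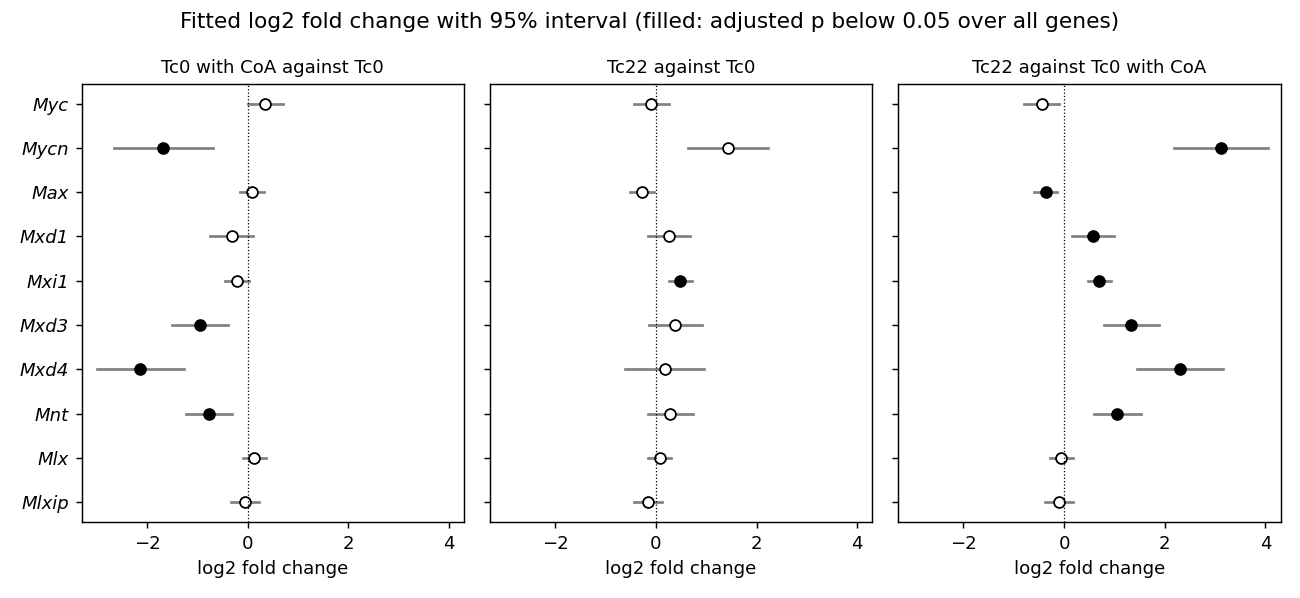
Fitted log2 fold change (horizontal axes) of each network gene in the 3 comparisons, with its 95% interval as a line; filled points have an adjusted p below 0.05 over all 15348 genes. With CoA, 4 members lie below 0 as filled points; in Tc22 against Tc0 only Mxi1 is filled; in Tc22 against Tc0 with CoA, 7 are filled.

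Among the 5 repressors, Mxd4 had the largest fitted difference in both comparisons with the CoA libraries and the smallest in Tc22 against Tc0. MXD4 (also called MAD4) is a MAX partner known for expression in differentiating cells. Mxd4 measured 9.07, 30.6 and 52.9 CPM in Tc0 from mice 715, 725 and 728, against 5.81, 3.33 and 8.97 CPM with CoA. The highest library with CoA stood just below the lowest Tc0 library, which came from mouse 715. The fitted change with CoA was -2.13 (SE 0.39, adjusted p = 0.0063 by edgeR), 4.38-fold lower, and it was lower in 3 of 3 mice. By mouse the log2 differences were -0.64, -3.20 and -2.56. Leaving out any 1 library kept the call, with fitted values from -2.67 to -1.69. Tc22 libraries held 17.0, 33.2 and 43.8 CPM, inside the range of Tc0, and the difference from Tc0 was 0.17 (95% interval from -0.61 to 0.96). Against Tc0 with CoA, Mxd4 in Tc22 was 4.94-fold higher (log2 2.30, SE 0.39, adjusted p = 0.0026 by edgeR).

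Mxd3, which encodes a MAX partner known from dividing cells in S phase, followed a like order of libraries at a lower amplitude. Its levels were 5.76, 10.3 and 19.5 CPM in Tc0 and 4.90, 3.72 and 8.92 CPM with CoA, in the order of mice 715, 725 and 728. The groups overlapped, since mouse 728 with CoA exceeded mouse 715 without it, but within each mouse the CoA library was the lower. The fitted change was -0.95 (SE 0.25, adjusted p = 0.0215 by edgeR). That call was lost without Tc0 of mouse 725 (adjusted p = 0.090) or 728 (0.0906), without the CoA library of mouse 725 (0.1001) or 728 (0.0848), and without the mouse block (0.183). Tc22 held 10.2, 14.6 and 18.1 CPM, 2.52-fold above Tc0 with CoA (log2 1.33, SE 0.25, adjusted p = 0.0038), while the difference from Tc0 did not pass (0.39, adjusted p = 0.366). Without the mouse block the higher level over Tc0 with CoA had an adjusted p of 0.0878. Mxd3 shares 105 exonic bases with Prelid1 on the opposite strand, and Prelid1 had 5013 to 14130 counts a library against 103 to 709 for Mxd3. Whether counting used strand is not given in the sources used here, so reads of the shared bases cannot be assigned. Prelid1 itself had a log2 difference of -0.18 with CoA (adjusted p = 0.355) and of 0.61 in Tc22 against Tc0 with CoA (adjusted p = 0.0092).

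MNT is the MXD-like repressor expressed in most tissues and the most constant opponent of MYC. Mnt measured 6.52, 8.07 and 14.8 CPM in Tc0 and 4.44, 5.39 and 6.79 CPM with CoA. The highest CoA library lay within the Tc0 range, and each mouse had the lower level with CoA. The fitted change was -0.77 (SE 0.21, adjusted p = 0.0241 by edgeR), 1.71-fold lower. The call was lost without the CoA library of any 1 mouse, without Tc0 of mouse 725 or 728, and without the block, with adjusted p between 0.0519 and 0.122 in these fits. In Tc22, Mnt stood at 11.7, 9.57 and 12.9 CPM, above every library with CoA. The direct difference was 1.06 (SE 0.21, adjusted p = 0.0048 by edgeR; 0.0525 without the block), and the difference from Tc0 was 0.29 (adjusted p = 0.422).

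Mxi1 (also called MXD2) was the most abundant repressor transcript per length. It measured 49.9, 72.7 and 75.6 CPM in Tc0 and 75.9, 91.2 and 109 CPM in Tc22. Every Tc22 library exceeded every Tc0 library, by a narrow margin between mouse 728 in Tc0 and mouse 715 in Tc22. The fitted difference was 0.48 (SE 0.10, adjusted p = 0.0333 by edgeR), 1.40-fold higher and in the same direction in 3 of 3 mice. This call was lost without Tc0 of mouse 715 or 725, without the CoA library of mouse 728 and on dropping any of the Tc22 libraries (adjusted p between 0.0674 and 0.170). It was also lost without the block (0.468). With CoA, Mxi1 measured 49.4, 56.2 and 63.8 CPM, and the change from Tc0, -0.21 (95% interval from -0.44 to 0.02), did not pass. Against Tc0 with CoA the Tc22 level was 1.62-fold higher (log2 0.70, SE 0.10, adjusted p = 0.0017 by edgeR).

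Mxd1, the first described member of the family and a gene known for induction in differentiating blood cells, was less variable between groups. Tc0 held 11.5, 16.3 and 20.7 CPM and Tc0 with CoA held 14.1, 11.1 and 13 CPM. Mouse 715 was higher with CoA and the other two were lower, and the change of -0.32 did not pass (adjusted p = 0.245). Without Tc0 of mouse 715 the change was -0.57 with an adjusted p of 0.0383, and without Tc0 of mouse 728 it was -0.16 (0.577). Tc22 held 18.9, 17.4 and 21.2 CPM, all above the CoA libraries, and the direct difference was 0.58 (SE 0.19, adjusted p = 0.0383 by edgeR). That call was lost without the block (0.101), without the CoA library of mouse 725 or 728, and on dropping any of the Tc22 libraries (between 0.0672 and 0.184 when 1 library was left out).

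The MYC genes themselves gave 2 different patterns. Myc measured 91.4, 77.7 and 89.0 CPM in Tc0 and 87.4, 133 and 111 CPM with CoA. It was higher with CoA in mice 725 and 728 and nearly level in mouse 715, so the groups overlapped. The fitted change was 0.35 (SE 0.16; 95% interval from 0.0017 to 0.71; adjusted p = 0.130 by edgeR). It depended on the library left out: without the CoA library of mouse 715 it was 0.59 (adjusted p = 0.0101), without that of mouse 725 it was 0.14 (0.594) and without Tc0 of mouse 725 it was 0.23 (0.469). Tc22 held 90.2, 74.9 and 77.2 CPM, a difference of -0.09 from Tc0 (95% interval from -0.44 to 0.26). The difference of Tc22 from Tc0 with CoA was -0.45 (SE 0.16, adjusted p = 0.0556 by edgeR). This missed the threshold. It passed with DESeq2 (adjusted p = 0.0295), with no filter on low counts (0.0185), without the CoA library of mouse 715 (0.00474) and without the Tc22 library of mouse 715 (0.0478). It was further from passing without the CoA library of mouse 725 (-0.23, adjusted p = 0.309) or 728 (0.169), without the Tc22 library of mouse 725 (-0.35, 0.259) or 728 (0.158) and with no block (0.0882).

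Mycn, the paralogue best known from embryonic and neural progenitor cells, was a low transcript that separated all 3 groups. It measured 1.20, 1.17 and 1.27 CPM in Tc0, 0.228, 0.145 and 0.843 CPM with CoA, and 3.20, 3.20 and 3.33 CPM in Tc22. No 2 groups overlapped, and Tc0 and Tc22 each had a narrow spread. The counts behind these levels were 25 to 46 in Tc0, 4 to 19 with CoA and 94 to 108 in Tc22. Counting error at such counts is wider than the spread seen in Tc0 and Tc22, so that spread does not show that the mice were alike. Mycn fell with CoA by 1.67 on the log2 scale (SE 0.44, adjusted p = 0.0230 by edgeR); the call was lost without Tc0 or CoA libraries of mouse 715 or 725 (adjusted p between 0.0552 and 0.0938), and also when no block was fitted (0.0694). In Tc22 against Tc0 the difference was 1.44 (SE 0.36), 2.71-fold, and missed the threshold (adjusted p = 0.0602 by edgeR). It passed with DESeq2 (0.0156), with no filter on low counts (0.00162), with only the groups compared in the fit (0.0124), and without any 1 CoA library (0.0153 to 0.0457). It did not pass without any 1 Tc0 library (0.0888 to 0.170), without any 1 Tc22 library (0.0536 to 0.311) or with no block (0.263). Tc22 exceeded Tc0 with CoA by 8.65-fold (log2 3.11, SE 0.42, adjusted p = 0.0011 by edgeR). The sizes moved with the CoA libraries: without that of mouse 728 the change with CoA was -2.65 and the direct difference 4.07, whereas dropping the one of mouse 725 gave -1.26 and 2.69. Mycn contributed little to the summed MYC level per length: its share was 1.15% ± 0.0778 in Tc0, 0.309% ± 0.279 with CoA and 3.22% ± 0.334 in Tc22 (SD, n = 3).

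The third MYC paralogue, Mycl, belongs to the other network genes listed beside the members. Mycl measured 0.881, 0.420 and 0.496 CPM in Tc0, 0.455, 0.325 and 0.311 CPM with CoA, and 2.72, 2.82 and 2.53 CPM in Tc22. All Tc22 libraries stood above all others, while Tc0 and CoA overlapped. Mycl was 4.53-fold higher in Tc22 than in Tc0 (log2 2.18, SE 0.28, adjusted p = 0.0031 by edgeR) and 7.43-fold higher than in Tc0 with CoA (log2 2.89, SE 0.30, adjusted p = 0.00037). With CoA its change from Tc0 was -0.72 (adjusted p = 0.151). Mga, which encodes a MAX-binding repressor of another kind, averaged 212 ± 43.0 CPM in Tc0 and 229 ± 41.6 with CoA (adjusted p = 0.467). Mlxipl, the MLXIP paralogue known from liver, had 0 to 9 counts a library and was not tested.

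Max, the shared partner, differed little between groups. Its level was 35.8, 43.3 and 43.2 CPM in Tc0, 38.6, 48.0 and 43.1 CPM with CoA, and 27.5, 36.7 and 36.6 CPM in Tc22. The Tc22 library was the lowest of its mouse in 3 of 3 mice. Against Tc0 with CoA the difference was -0.37 (SE 0.11, adjusted p = 0.0255 by edgeR), and against Tc0 it was -0.28 (adjusted p = 0.177). The former call was lost with no filter on low counts (0.0583), without the block (0.154), on dropping any of the CoA libraries (between 0.0634 and 0.113) and without the Tc22 library of mouse 715 or 725 (0.15 and 0.111).

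In the glucose-sensing branch, neither Mlx nor Mlxip passed the test in any of the 3 comparisons. Mlx measured 45.4, 50.5 and 52.0 CPM in Tc0, 53.4, 54.2 and 54.5 CPM with CoA, and 45.4, 55.1 and 55.6 CPM in Tc22. Every CoA library exceeded every Tc0 library, but the change was 0.13 (95% interval from -0.09 to 0.36; adjusted p = 0.368 by edgeR). Mlxip ranged from 27.4 to 37.0 CPM in Tc0, from 28.6 to 32.6 CPM with CoA and from 26.2 to 30.3 CPM in Tc22. Its differences from Tc0 were -0.05 with CoA (95% interval from -0.33 to 0.24) and -0.15 in Tc22 (from -0.43 to 0.13). Mlx shares 385 exonic bases with Psmc3ip on the opposite strand, and the coenzyme A synthase gene Coasy ends 657 bases before it on the same strand. Neither neighbour was called in any comparison: Psmc3ip had adjusted p from 0.186 to 0.665 and Coasy from 0.205 to 0.516.

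Added up per kilobase of exon, the 5 repressor transcripts (Mxd1, Mxi1, Mxd3, Mxd4 and Mnt) amounted to 22.7 ± 8.91 CPM per kb in Tc0, 14.5 ± 2.62 with CoA and 28.4 ± 5.99 in Tc22 (SD, n = 3). The sum of Myc and Mycn was 32.0 ± 2.71, 40.7 ± 8.35 and 30.7 ± 3.03 CPM per kb. The ratio of the repressor sum to the MYC sum was 0.407, 0.783 and 0.955 in Tc0 from mice 715, 725 and 728. It was 0.402, 0.264 and 0.426 with CoA, and 0.662, 0.979 and 1.17 in Tc22. The ratio in mouse 715 was almost the same with and without CoA, while in the other two mice it was lower with CoA, and Tc22 had the highest ratio within each mouse. Mxi1 made up 45.0% ± 9.11 of the repressor sum in Tc0, 57.7% ± 5.34 with CoA and 47.7% ± 1.46 in Tc22, and the share of Mxd4 was 14.4% ± 6.13, 4.79% ± 1.57 and 12.6% ± 3.26. Mga, which also encodes a MAX-binding repressor, is not in these sums, so they do not cover every repressor of the network. These sums and ratios are descriptions of RNA and carry no test, and transcript levels do not give protein levels.

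**Figure D3:**
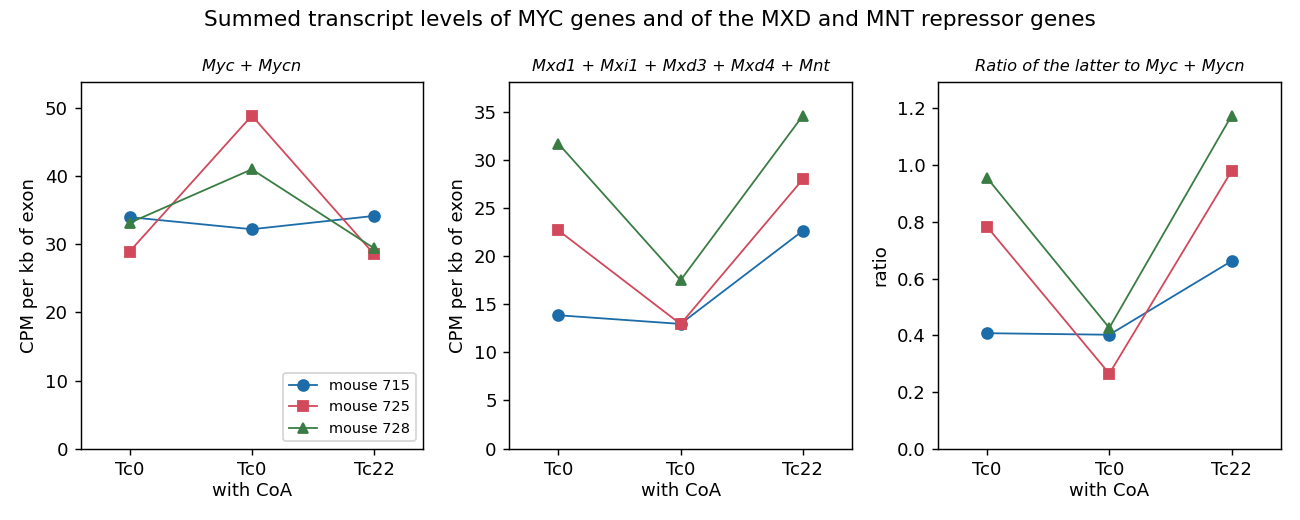
Summed levels per kilobase of exon of Myc and Mycn (left), of the 5 MAX-binding repressor genes (middle) and the ratio of the latter to the former (right), for each of 9 libraries; lines join libraries of a mouse. In mice 725 and 728 the ratio is lower with CoA than in Tc0, and in mouse 715 it is 0.407 and 0.402.

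The members differed in how far mice varied within a group. In Tc0 the highest library exceeded the lowest by 5.84-fold for Mxd4, 3.39-fold for Mxd3 and 2.26-fold for Mnt, each time mouse 728 over mouse 715. Myc, Mycn, Max, Mlx and Mlxip varied by 1.09-fold to 1.35-fold in the same libraries. The lowest of these values, that of Mycn, rests on 25 to 46 counts a library, where counting error is wider. Mouse 715 also gave the smallest drop with CoA for Mxd4, Mxd3 and Mnt. With CoA, Mycn had the widest spread, 5.83-fold between mice 728 and 725. Over the 9 libraries, which come from 3 mice and 3 groups and so are not independent, log2 levels of Mxd3 and Mxd4 had Pearson's r of 0.96 and Spearman's rho of 0.98, and those of Mxd3 and Mnt had 0.92 and 0.93. For Myc and Mxd4 the values were -0.76 and -0.67.

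Most listed genes that MYC is known to activate were higher with CoA. This list and those below were chosen with earlier results of these data known, so their counts are descriptive. Of 32 listed targets, 23 rose and no other passed the test, against 12.5% of all tested genes called higher; DESeq2 called 24. Their median log2 fold change was 0.62, against -0.01 over all genes. Ccnd2, which encodes cyclin D2, measured 274, 278 and 246 CPM in Tc0 and 710, 1132 and 663 CPM with CoA, 3.09-fold higher (log2 1.63, SE 0.18, adjusted p = 0.0011 by edgeR). Odc1, for the rate-limiting enzyme of polyamine synthesis, rose 2.33-fold (adjusted p = 0.0027), Tfrc, for the transferrin receptor, rose 2.05-fold (0.0026) and Nop56, for a nucleolar protein of ribosome production, rose 1.93-fold (0.0031). In these 4 genes every CoA library exceeded every Tc0 library, as in 14.2% of all tested genes. They were picked by the smallest p in this comparison, so the separation adds no support. Among the targets that did not pass were those of glycolysis Slc2a1 (-0.32), Pkm (-0.14) and Ldha (0.07), named after their values were seen, whereas the hexokinase gene Hk2 rose (0.62, adjusted p = 0.0098). Within mice 715, 725 and 728, 29, 30 and 28 of the 32 were higher with CoA, with median log2 differences of 0.33, 0.85 and 0.71. Without the mouse block, 12 targets were called, and without Tc0 of mouse 725 or the CoA libraries of mouse 725 or 728 the counts were 11, 11 and 12.

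For Tc22 and Tc0, 0 of the 32 targets passed by edgeR; 6 had an unadjusted p below 0.05 and DESeq2 called 2, Slc2a1 and Pkm. Their median log2 difference was 0.05, and 3.68% of all tested genes were called in this comparison. The smallest p-values belonged to the glucose transporter gene Slc2a1 (0.66, adjusted p = 0.126) and the pyruvate kinase gene Pkm (0.57, adjusted p = 0.128). Without Tc0 of mouse 728, 6 targets were called. Set against Tc0 with CoA, Tc22 had 24 targets lower and 2 higher, with a median of -0.65 and 16 called without the block. Of all tested genes, 16.0% were called lower and 16.0% higher in this direct comparison. Ccnd2 was 3.20-fold lower (adjusted p = 0.00045), Tfrc 2.44-fold, Polr1b, for a subunit of RNA polymerase I, 2.20-fold and Nop56 2.15-fold. The 2 higher were Slc2a1 (0.98, adjusted p = 0.0072) and Pkm (0.71, adjusted p = 0.0154), named because they ran against the rest. Leaving out the CoA library of mouse 725 or 728 gave 16 and 17 called targets.

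Genes that MYC is known to repress mostly moved the other way. With CoA, 4 of the 5 tested fell and 1 rose, with a median of -1.48, against -0.01 over all genes. Of all tested genes, 12.0% were called lower and 12.5% higher with CoA. Gas1 had no counts. Cdkn1b, for the cell cycle inhibitor p27, measured 116, 189 and 163 CPM in Tc0 and 66.5, 32.9 and 70.6 CPM with CoA, 2.79-fold lower (log2 -1.48, SE 0.26, adjusted p = 0.0055 by edgeR). Ndrg1, a stress-response gene, was 2.86-fold lower (adjusted p = 0.0290), although in mouse 715 it differed by only -0.01, and Gadd45a, a growth arrest gene, was 1.67-fold lower (0.0220). The fourth to fall was Cdkn2b, for the inhibitor p15, from 0.630 to 0.194 CPM on average (adjusted p = 0.0302), named after its value was seen. Cdkn1a, for the inhibitor p21, went the other way: it held 108, 42.3 and 66.0 CPM in Tc0 and 127, 120 and 133 CPM with CoA (1.87-fold higher, adjusted p = 0.0102). Between Tc22 and Tc0, 0 of 5 passed by edgeR and 0 by DESeq2, with 3 at an unadjusted p below 0.05. The share called over all tested genes was 3.68%. Tc22 had 4 of 5 higher than Tc0 with CoA, against 16.0% of all tested genes called higher. These were Cdkn1b by 3.23-fold, Cdkn2b by 6.11-fold, Ndrg1 by 5.36-fold and Gadd45a by 1.71-fold. Of the genes called with CoA, 2 were called without the block and 1 without the CoA library of mouse 728.

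Of 3 known MLXIP-MLX targets, 2 fell with CoA, against 12.0% of all tested genes called lower. Txnip, whose product restrains glucose uptake, carries the paired motif printed above. It measured 218, 308 and 465 CPM in Tc0, 127, 96.7 and 174 CPM with CoA, and 372, 385 and 553 CPM in Tc22. All CoA libraries lay below all others. The change with CoA was -1.29 (SE 0.16, adjusted p = 0.0018 by edgeR), and Tc22 was 3.31-fold above Tc0 with CoA (adjusted p = 0.00025). Klf10, a TGF-beta-induced zinc finger gene, fell by 0.54 on the log2 scale (adjusted p = 0.0236), and Arrdc4, a paralogue of Txnip, measured 2.17, 3.31 and 3.52 CPM in Tc0 and 1.82, 1.77 and 1.91 CPM with CoA without passing the test. All 3 were higher in Tc22 than in Tc0 with CoA, against 16.0% of all tested genes called higher. Tc22 against Tc0 gave 0 of 3 past the threshold by edgeR and 0 by DESeq2, with 1 at an unadjusted p below 0.05. The share over all tested genes was 3.68%. Mlx and Mlxip had not passed in these comparisons.

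**Figure D4:**
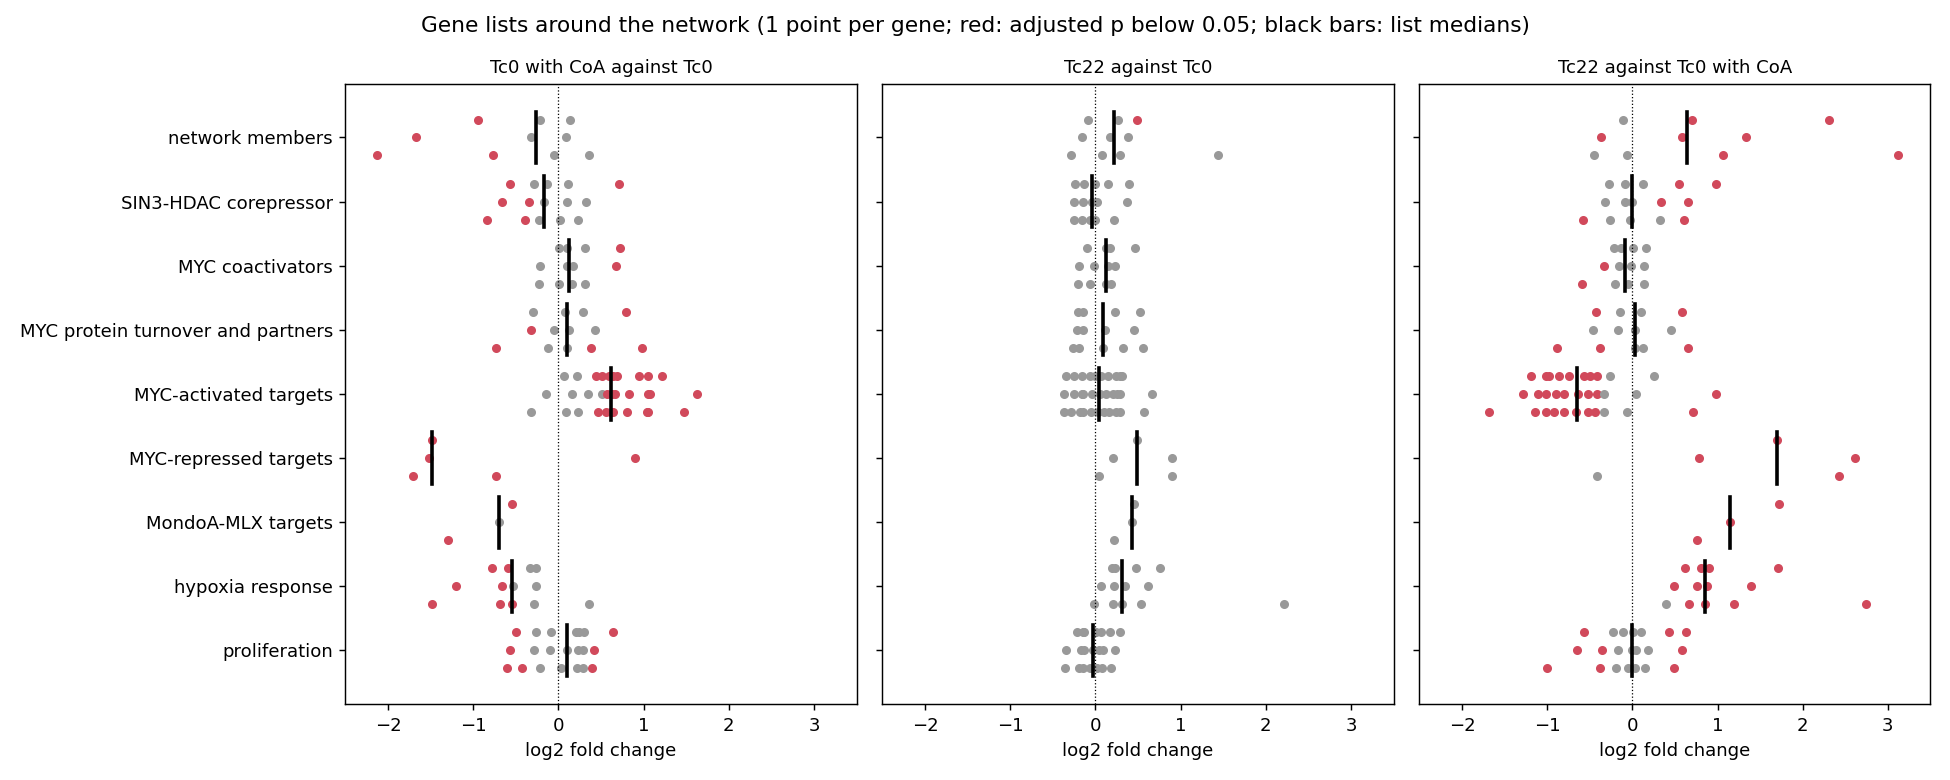
Fitted log2 fold changes (horizontal axes) of the tested genes of 9 lists in the 3 comparisons; each point is a gene, red points have an adjusted p below 0.05 over all genes and black bars are list medians. The MYC-activated targets have a median of 0.62 with CoA against Tc0, of 0.05 in Tc22 against Tc0 and of -0.65 in Tc22 against Tc0 with CoA.

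Genes for the cofactors through which these dimers act were followed next, against 24.5% of all tested genes called with CoA and 32.0% in Tc22 against Tc0 with CoA. In Tc22 against Tc0 the share was 3.68%. Of 15 SIN3-HDAC corepressor genes, 5 fell with CoA and 1 rose, with a median of -0.17. Sap30, a SIN3 scaffold-associated subunit, fell from 40.4 ± 8.82 to 22.1 ± 0.870 CPM (SD, n = 3; log2 -0.84, adjusted p = 0.0051 by edgeR), and Ing2, a histone-reading subunit, fell by 0.66. The corepressor subunit genes Arid4a and Ing1 fell by 0.57 and 0.40. The others, named after their values were seen, were Sin3a, for the scaffold itself, which fell by 0.35, and Brms1, which rose by 0.71. In Tc22 against Tc0 with CoA 5 of the 15 were higher (Sap30 0.99, Ing2 0.66, Ing1 0.61, Sin3b 0.55 and Sin3a 0.34) and 1, the deacetylase gene Hdac2, was lower (-0.57). The 6 calls with CoA became 3 without the block, 1 without Tc0 or the CoA library of mouse 725 and 2 without the CoA library of mouse 728. Between Tc22 and Tc0, 0 of 15 passed by edgeR and 0 by DESeq2, with 1 at an unadjusted p below 0.05. Among 12 genes of MYC coactivators, Ruvbl1 and Ruvbl2, the paired ATPases of chromatin-remodelling complexes, rose with CoA by 0.72 and 0.67 (adjusted p = 0.0046 and 0.0246), and no other passed, a smaller share than over all genes. Ruvbl1 was lower in Tc22 than with CoA (-0.59), as was the adaptor gene Wdr5 (-0.33, adjusted p = 0.0460). Between Tc22 and Tc0, 0 of the 12 passed by edgeR and 0 by DESeq2, with 1 at an unadjusted p below 0.05.

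Of 13 genes for MYC protein turnover and partners, 3 rose and 2 fell with CoA. Usp36, for a nucleolar deubiquitinase that stabilises MYC, rose from 22.7 ± 4.29 to 44.5 ± 9.34 CPM (SD, n = 3; log2 0.98, adjusted p = 0.0072 by edgeR). Usp28, for another deubiquitinase known to act on MYC, fell by 0.73 (adjusted p = 0.0141). Aurka, for Aurora kinase A, rose by 0.38, while the kinase gene Gsk3b, named after its value was seen, fell by 0.33. These 5 calls became 2 without the block and 1 without Tc0 or the CoA library of mouse 725 or the CoA library of mouse 728. Comparing Tc22 with Tc0, 0 of 13 passed by edgeR, 2 had an unadjusted p below 0.05 and DESeq2 called 1, the kinase gene Pim1 (0.52, edgeR adjusted p = 0.0549). Relative to Tc0 with CoA, Tc22 had 2 higher, Pim1 (0.65) and Usp28 (0.59), and 3 lower, Usp36 (-0.88) and the ubiquitin ligase genes Huwe1 (-0.43) and Skp2 (-0.38).

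Other factors that recognise E-boxes were measured for comparison. CoA gave calls in 24.5% of all tested genes. Tc22 gave 3.68% relative to untreated Tc0 and 32.0% relative to CoA-treated Tc0. The 9 factors are too few to set their count of calls against that of the members. With CoA, 0 of 9 passed by edgeR, with 0 at an unadjusted p below 0.05 and 0 by DESeq2. In Tc22 against Tc0, 2 were higher: Bhlhe40, a repressor induced by T cell activation, at 369 ± 36.0 against 199 ± 51.4 CPM (SD, n = 3; log2 0.91, adjusted p = 0.0059 by edgeR), and the lysosomal regulator gene Tfe3 (0.66, adjusted p = 0.0333). Tc22 also had more Bhlhe40 (0.84) and Usf2 (0.65, adjusted p = 0.0065) than Tc0 with CoA, Usf2 encoding a general E-box activator.

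Among the pathway genes named above, the calls with CoA of Ccnd2, Odc1, Tfrc, Nop56, Cdkn1b, Txnip, Sap30, Usp36 and Ruvbl1 held under each alternative run, as did both calls of Mycl. When no block was fitted, the calls with CoA of Cdkn1a, Ndrg1, Gadd45a, Klf10, Ing1, Ruvbl2 and Aurka were lost. Each of these was also lost on leaving out at least 1 library with the block kept. Their highest edgeR adjusted p in those runs was between 0.0540 (Cdkn1a) and 0.179 (Aurka). The calls of Ing2, Arid4a and Usp28 with CoA were lost without Tc0 or the CoA library of mouse 725. DESeq2 also lost the call of Gadd45a with CoA. For Tc22 against Tc0, Bhlhe40 had an adjusted p of 0.0633 without the block and Tfe3 of 0.255. With the block kept and 1 library left out, the edgeR adjusted p of Tfe3 reached 0.204. For Tc22 against Tc0 with CoA, the calls of Wdr5, Usf2, Hdac2, Huwe1, Usp28 and Gadd45a were also lost with no block. Leaving out at least 1 library lost each of them too, with a highest edgeR adjusted p between 0.0507 (Usf2) and 0.251 (Wdr5). In Tc22 against Tc0 with CoA the corepressor calls fell from 6 to 2 without the CoA or the Tc22 library of mouse 725. Without the Tc22 library of mouse 725 the turnover calls fell from 5 to 1 and the proliferation calls described next from 9 to 2. With no block the corepressor, turnover and proliferation calls were 4, 2 and 3. Without Tc0 of mouse 728, Tc22 against Tc0 gave 5 E-box factors, 3 corepressor, 4 turnover, 6 proliferation and 3 hypoxia genes called.

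Markers of other processes and cells are given beside these results, and their part in them was not tested. For scale, CoA gave calls in 24.5% of all tested genes, 12.5% higher and 12.0% lower. The direct comparison of Tc22 with CoA-treated Tc0 gave 32.0%, with 16.0% each way. Tc22 relative to untreated Tc0 gave 3.68%. Of 21 proliferation genes, 3 rose with CoA and 4 fell, with a median of 0.10: Ccne1, for cyclin E1, rose by 0.64 while Mki67, Top2a and Aurkb fell by 0.57, 0.50 and 0.42. The others, named after their values were seen, were Mcm7 and Rrm2, higher by 0.42 and 0.40, and E2f2, which fell by 0.60. These 7 calls became 2 without the block and 1 without Tc0 or the CoA library of mouse 725 or the CoA library of mouse 728. Tc22 had 4 of the 21 higher and 5 lower than Tc0 with CoA, the lower including Ccne1 and Ccne2 (-0.64). Comparing Tc22 with Tc0, 0 of these 21 passed by edgeR and 0 by DESeq2, with 2 at an unadjusted p below 0.05. Of 13 genes of the hypoxia response, 7 fell with CoA (median -0.55), led by the mitophagy receptor gene Bnip3 (-1.21), Ankrd37 (-1.48), and P4ha1 (-0.78), for a collagen-modifying hydroxylase. Within mouse 715 the hypoxia median was -0.07, and in mice 725 and 728 it was -1.08 and -0.62. In Tc22 against Tc0 with CoA 12 of the 13 were higher (median 0.85). Comparing Tc22 with Tc0, 0 of 13 passed by edgeR, 6 had an unadjusted p below 0.05 and DESeq2 called 2, Mif and Adm. Without the block the hypoxia calls were 2 with CoA and 5 in Tc22 against Tc0 with CoA.

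Of 8 CD8 T cell markers, 4 fell with CoA: the receptor chain genes Cd3d (-0.79), Cd3e (-0.72) and Cd3g (-0.72), and the adhesion gene Cd2 (-0.50). Within mouse 715, 4 of the 8 were higher with CoA and 4 lower (median log2 difference -0.06). In mice 725 and 728 the medians were -0.45 and -0.52. Of these 8, 5 were higher in Tc22 than in Tc0 with CoA (median 0.53), and 0 passed in Tc22 against Tc0. Over all tested genes, 12.0% were called lower and 12.5% higher with CoA. The shares were 16.0% each way in Tc22 against Tc0 with CoA, and 2.48% were higher in Tc22 against Tc0. The summed markers ranged from 2143 to 2794 CPM in Tc0, 1752 to 2233 with CoA and 2119 to 2661 in Tc22. Macrophage and monocyte markers, 4 of 6 tested, summed to 4.50 to 6.55 CPM in Tc0, 4.97 to 14.0 with CoA and 6.19 to 7.13 in Tc22, and Cd14 and Lyz2 rose with CoA. In Tc22 against Tc0 with CoA 3 of these 4 were lower and 1 was higher (median -1.72). The B cell list summed to 12.7 to 16.5, 30.8 to 35.0 and 17.5 to 26.2 CPM, nearly all of it Cd79b, at up to 11.7 CPM, and Cd74, the invariant chain gene, of which the latter rose with CoA (2.58) and was higher in Tc22 than in Tc0 (1.74). The CD4 and regulatory T cell list summed to 147 to 224, 88.1 to 143 and 118 to 201 CPM, mostly Ikzf2, with Foxp3 never above 0.606 CPM. Natural killer cell markers, 2 of 5 tested, summed to 0.798 to 2.27 CPM in Tc0, 0.311 to 0.721 with CoA and 3.17 to 3.47 in Tc22, without overlap and in the same order of groups as Mycn. Of these 2 tested markers, 1 was called lower with CoA, 1 was called higher in Tc22 than in Tc0, and both were called higher in Tc22 than in Tc0 with CoA. Dendritic cell markers summed to 5.46 to 9.40 CPM with CoA, above all Tc0 libraries, and to 4.36 to 5.85 CPM in Tc22. Granulocyte and mast cell markers summed to at most 2.06 CPM and erythroid markers to 0.510, and S100a9 and Mcpt4 were at 0 in all libraries.

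The genes most like each called member were sought among 9238 genes with a mean of at least 5 CPM, by Pearson's r of log2 levels over the 9 libraries, as a description. For Mxd4 the highest were Pink1, Zfp395 and Sash3 (r from 0.993 to 0.994) and the lowest were Emc4, Ilf2 and Irak1bp1 (-0.996 to -0.995). Mxd3 was most like Itgb7, Gpi1 and Frmd8 (0.996 to 0.998) and least like Ankrd13c, Cfdp1 and Yae1d1. Mnt was most like Cyfip2, Btbd6 and Ulk1 (0.972 to 0.977) and least like Mpzl3, Exosc9 and Rfk. The genes nearest to Mxi1 were P4hb, Arih2 and Reck (0.973 to 0.986), and the farthest were Chd9, Rffl and Fam84b. Mycn ran with Fth1, Mtss1 and Gpr141 (0.967 to 0.979) and opposite to Cemip2, Gpr65 and Ahr (-0.981 to -0.975). Max was nearest to Zfp251, Trib1 and Ints7 (0.934 to 0.958) and farthest from Gab2, Glipr2 and Sae1, and Mxd1 was nearest to Agbl5, Ift140 and Zfyve1 (0.955 to 0.960) and farthest from Acp2, Hs2st1 and Snrpc. The libraries share mice and groups, so many genes reach such values.

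On GRCm38 in the GENCODE annotation, the members are spread over 7 chromosomes: Myc lies at chr15:61985391-61990374, Mycn at chr12:12936093-12941914 and Max at chr12:76937269-76962201. Mxd1 lies at chr6:86647042-86669161, Mxi1 at chr19:53310518-53375810, Mxd3 at chr13:55325168-55329823 and Mxd4 at chr5:34173883-34187720. Mnt and Mlx are on chromosome 11, at 74830920-74845725 and 101087277-101092207, and Mlxip is at chr5:123394798-123457932. Counts were summed over each whole gene, so isoforms were not separated.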

How the data were processed

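RNA-seq of CD8+ T cells was analysed for 3 groups of 3 libraries, each group from mice 715, 725 and 728. The authors deposited whole-number counts per gene, and the 9 single files were identical to the joint table; per the submitters' processing notes STAR 2.5.2, RSEM 1.3.0, GRCm38 and mm10 were named, without saying which did what. For strand setting and annotation release, "not given in the sources used here" applies. Counts may be rounded estimates. Groups came from the labels, and the design text says that each mouse gave all populations, so mouse was a block. Same-mouse libraries deviated from their group means together (correlation 0.0709 to 0.762 over 9 pairs, and -0.696 to 0.316 over 18 pairs of different mice). Taking deviations from group means ties the latter values to the former, so they are no separate evidence, and the ranges overlap.

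Counts were fitted in R 4.3.3 with edgeR 4.0.16 (TMM scaling, filterByExpr with a minimum count of 10, group plus mouse over 9 libraries, 4 residual degrees of freedom, quasi-likelihood test, Benjamini-Hochberg adjustment over 15348 genes, threshold 0.05); SE was taken as |log2 fold change| over the root of F. CPM use the scaled library sizes, and likeness used log2(CPM + 1). Levels per kb use exon unions of the GENCODE annotation; sequences are from RefSeq. The fit was run on simulated data with known changes that were equal in all mice and with no outlying library. It therefore does not cover changes that differ between mice or a library such as Tc0 of mouse 728. Alternatives were DESeq2 1.42.0, other scalings, no filter, no block, the compared groups alone and leaving out each library. Network members and gene lists were chosen with earlier results of these data known. Named beside the members were up to 4 called genes a list and comparison with the smallest p (up to 2 where none passed), and the 3 most and least correlated genes of each called member; some genes that the rule names are not reported here, others are marked as named after their values were seen, and neighbouring genes and cell markers are named for their position or list. Precision follows from the depth and from 3 mice a group; counting error is included in the model.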

Additional observations from a re-analysis of the deposited data

How the results depend on the processing

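RLE scaling and library size alone changed no member's call. Without the mouse block (no pairing), the members called were 1 with CoA, 0 in Tc22 against Tc0 and 3 in the direct comparison of Tc22 with CoA-treated Tc0. The MYC-activated targets called were then 12 with CoA and 16 in the direct comparison, and all genes called were 1462, 120 and 2097. For Tc22 against Tc0, DESeq2 called 2 members, 2 MYC-activated targets and 962 genes, no low-count filter gave 2, 2 and 1275, and the compared groups alone gave 2 members. Leaving out each library in turn gave 1 to 4 members with CoA, 0 to 2 in Tc22 against Tc0 and 5 to 7 in the direct comparison. The targets called were then 11 to 25, 0 to 6 and 16 to 28, and all genes 1160 to 4356, 201 to 2669 and 2185 to 5913; the lowest count with CoA came without Tc0 of mouse 725 and the highest for Tc22 against Tc0 without Tc0 of mouse 728. Signs turned on leaving out a library for 3 uncalled values: Mxd4 in Tc22 against Tc0 (-0.2308 to 0.4328), Mlxip with CoA (-0.129 to 0.0441) and Mlx in the direct comparison (-0.0976 to 0.0071). The cause was not tested. Depth limits Mycn most, with 4 to 19 counts in the CoA libraries.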
